A study of Mus musculus with 12 samples.

Results

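The transcripts of 9 adhesion molecules that neutrophils use to leave blood and enter tissue were followed in sorted mouse neutrophils. The 9 genes were Selplg, Cd44, Itgb2, Itgal, Itgam, Itgax, Itga4, Icam1 and Alcam, chosen by symbol from the 28987 genes of the deposited table, and all 9 passed the filter on low values that left 13456 genes for testing. The 12 libraries formed 4 groups of 3. BM WT and BM Bcl2 were cells sorted from bone marrow, and PT WT and PT Bcl2 were cells sorted from the peritoneal cavity. All mice were of the FVB strain, and all received 2 mL of thioglycollate, a sterile irritant, into the peritoneum 6 hours before collection according to the labels, while the study's methods give other times. WT mice are labelled wild type. Bcl2 mice carried MRP8-Bcl2, a human Bcl-2 transgene under MRP8 regulatory sequences that act in myeloid cells. The bone marrow cells therefore also came from injected mice, so the tissue comparison is between compartments of treated animals. The labels name the source as macrophages, whereas the study describes the cells as neutrophils gated as CD11b positive, F4/80 negative and GR1 high. Itgam encodes CD11b, so its protein was part of the gate.

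Neutrophils roll on selectins, for which PSGL-1 (the product of Selplg) and CD44 are ligands, and then arrest and crawl by means of integrins. The beta2 integrins pair the shared beta chain Itgb2 with 1 alpha chain, Itgal giving LFA-1, Itgam giving Mac-1 and Itgax giving CD11c/CD18. Itga4 encodes the alpha chain of VLA-4. Icam1 encodes a ligand of the beta2 integrins, best known on endothelium, and Alcam (CD166) is an immunoglobulin-like molecule that binds itself and CD6.

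Before the results, several features of the libraries have to be stated. One library labelled PT Bcl2, number 9 in the columns, held 0.695 TPM of mouse Bcl2 (TPM is a level scaled to transcript length and library total), against 58.6 to 333 TPM in the other 5 libraries with the Bcl2 label and 0.219 to 2.37 TPM in the WT libraries. The tissue differences in Bcl2 are therefore also given without it. A set of 108 genes with an annotated run of at least 31 A or T, called homopolymer genes here, took 8.93% to 24.1% of the TPM in the BM libraries, 15.5% in PT Bcl2 library 7, 20% in PT WT library 12, and 50.8% to 65.6% in the other 4 PT libraries. PT WT library 12 also held the highest summed TPM of mast cell markers (678, against 4.91 to 78.0 elsewhere) and of B cell markers (1430). PT Bcl2 library 7 held the highest sums of macrophage (720) and platelet (526) markers. TPM keeps no read totals, so the depth of the libraries is unknown and no counting interval can be given. Nothing in the columns says that the libraries of a group came from separate mice, so p-values measure the spread between these libraries. Bone marrow and peritoneal cells were taken from each mouse, so BM and PT libraries of a genotype can share mice, but the columns do not show which, and the tests treat all libraries as independent.

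Icam1 was among the lowest of the 9 transcripts in bone marrow and rose in peritoneal cells of both genotypes. It lies on chromosome 9 at 21015985 to 21028817 (GRCm38, plus strand), where the antisense gene model Gm47079 overlaps it, and whether strand was used in counting is not stated. Its promoter is shown because Icam1 had the largest tissue difference of the 9 genes in both genotypes, and that of Itgam is shown as the alpha chain with the highest level. Promoters of 6 of the 9 genes were found in the RefSeq table (GRCm38.p6), and the 250 bases before the start site are printed 5′ to 3′ on the gene's strand. They lie at chr9:21015690-21015939 (Icam1) and chr7:128062390-128062639 (Itgam), both on the plus strand.
Icam1: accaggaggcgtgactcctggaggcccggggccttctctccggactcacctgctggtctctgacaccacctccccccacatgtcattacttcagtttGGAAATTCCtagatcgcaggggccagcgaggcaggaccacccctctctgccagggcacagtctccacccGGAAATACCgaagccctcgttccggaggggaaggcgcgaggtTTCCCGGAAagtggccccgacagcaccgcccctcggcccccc
Itgam: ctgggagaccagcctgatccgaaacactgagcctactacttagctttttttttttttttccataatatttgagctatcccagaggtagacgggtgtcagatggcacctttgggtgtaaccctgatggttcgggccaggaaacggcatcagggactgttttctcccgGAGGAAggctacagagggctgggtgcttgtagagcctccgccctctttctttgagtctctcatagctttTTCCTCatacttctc
Capitals mark matches on either strand to the letters GGNNNTTCC (like a kappaB site), TTCNNNGAA (like a STAT site) and GAGGAA (like an ETS site). The letters were chosen with the Icam1 promoter in view. Icam1 held 2 matches to the first and 1 to the second, and Itgam held 2 to the third. Of 32851 promoters of the same length, 15.7% held the first, 7.02% the second and 23.3% the third. These matches are a description of the letters only.

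In the BM WT libraries Icam1 stood at 6.62, 1.93 and 0.426 TPM, and in the PT WT libraries at 71.1, 47.2 and 67.3 TPM. In BM Bcl2 it was listed at 0 in 1 library and stood at 4.48 and 7.34 TPM in the others, and in PT Bcl2 it stood at 92.1, 42.1 and 72.4 TPM. Every PT library was above every BM library in both genotypes. On the log2(TPM + 1) scale the difference was 4.29 ± 0.83 (SE) in WT (adjusted p = 0.0136, limma with Benjamini-Hochberg adjustment over all tested genes) and 4.22 in Bcl2 (adjusted p = 0.00449). The Bcl2 difference was 4.15 without library 9 (adjusted p = 0.0134). The WT call was lost with a pseudocount of 0.1 (adjusted p = 0.0789), without BM WT library 6 (0.0547) and without PT WT library 10 (0.0675), whereas the Bcl2 call was held in all 22 alternatives. Within its library, Icam1 ranked between the 5th and 45th percentile of tested genes in BM and between the 87th and 94th in PT.

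Alcam, on chromosome 16 at 52248996 to 52454074 (minus strand), was also higher in peritoneal cells. It stood at 42.7, 29.3 and 11.1 TPM in BM WT and at 192, 113 and 402 TPM in PT WT. In BM Bcl2 it stood at 25.1, 84.7 and 15.7 TPM and in PT Bcl2 at 234, 191 and 101 TPM. The groups did not overlap in either genotype, although BM Bcl2 library 2 came close to PT Bcl2 library 9. The log2 difference was 3.03 ± 0.72 in WT (adjusted p = 0.0357, limma) and 2.31 in Bcl2 (adjusted p = 0.0338), and 2.67 in Bcl2 without library 9 (adjusted p = 0.0353). The call was held in 12 of 22 alternatives in WT and in 16 of 22 in Bcl2. Of the 12 fits with a single library left out, it was held in 6 in WT and 8 in Bcl2. Those 6 left out a Bcl2 library, and the WT call was lost without any single WT library. Without PT WT library 12 the WT adjusted p was 0.132.

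Itgax, on chromosome 7 at 128129547 to 128150657 (plus strand), was the alpha chain called higher in peritoneal cells with the values as deposited. It stood at 4.60, 9.26 and 1.12 TPM in BM WT and at 28.1, 40.1 and 313 TPM in PT WT, with the last value in library 12. In BM Bcl2 it stood at 1.65, 7.62 and 0.634 TPM and in PT Bcl2 at 61.9, 16.2 and 18.4 TPM. Every PT library was again above every BM library. The log2 difference was 3.87 ± 0.98 in WT (adjusted p = 0.0475, limma) and 3.04 in Bcl2 (adjusted p = 0.0390), but the call was the least stable of the 3. It was held in 6 of 22 alternatives in WT and 15 of 22 in Bcl2. Of the 12 fits with a single library left out, it was held in 7 in Bcl2 and 1 in WT. The latter left out PT Bcl2 library 7, so the WT call was lost without any single WT library. The adjusted p was 0.180 in WT without library 12 and 0.0549 in Bcl2 without library 9. Of its transcript 31-mers, 10.7% also occur in Itgad, a neighbouring alpha chain that was at or near 0 in all libraries but 1 of BM Bcl2.

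**Figure D1:**
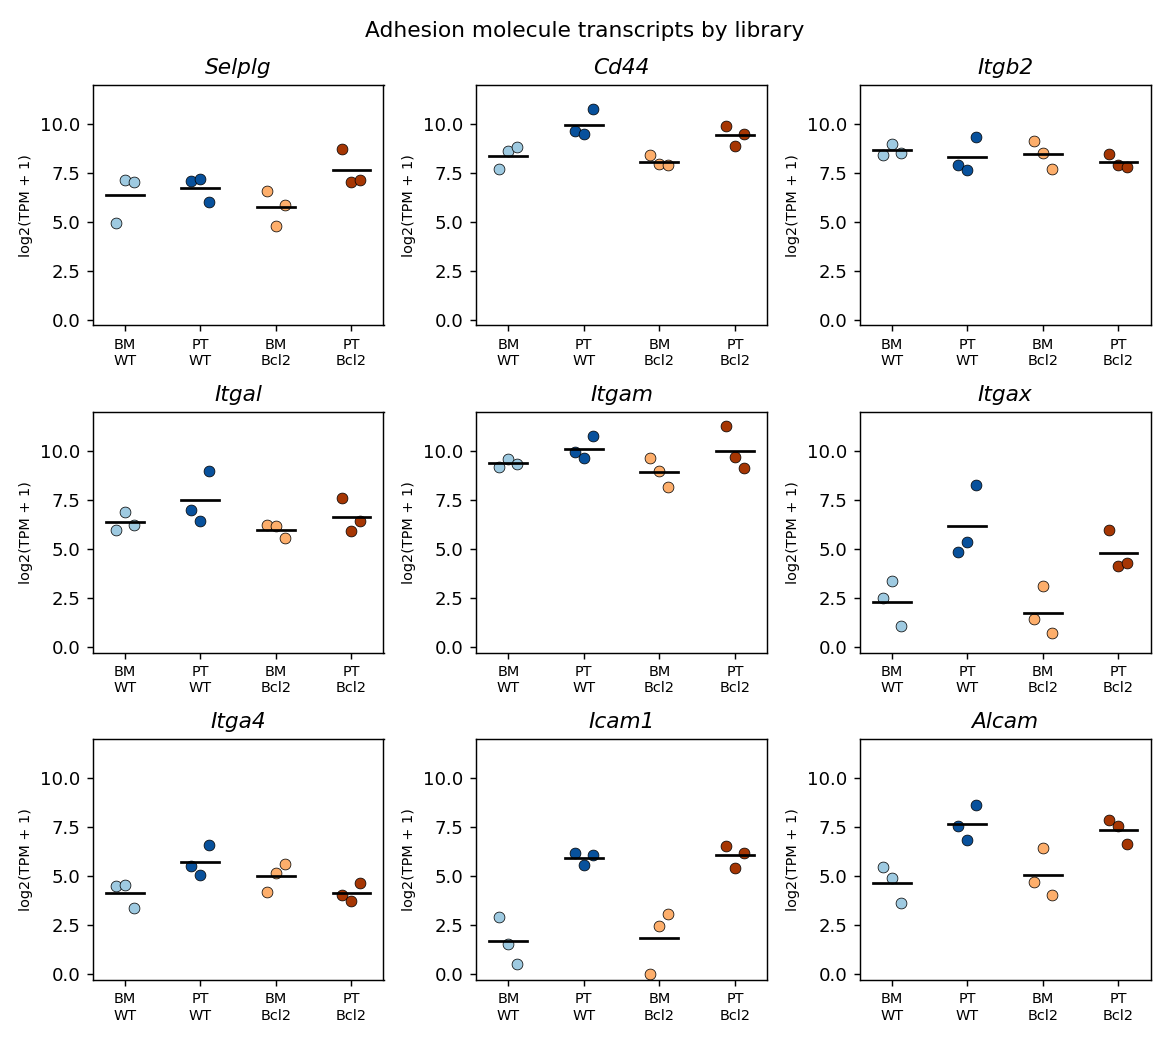
Level of each of the 9 adhesion molecules in log2(TPM + 1), with 1 point per library and a bar at the mean of the 3 libraries in each tissue and genotype. Icam1, Itgax and Alcam are the genes whose PT points lie clear of their BM points in both genotypes and pass the test, whereas the Itgb2 groups overlap.

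In all, 3 of the 9 genes were called higher in PT WT and the same 3 in PT Bcl2, and none lower, by an adjusted p under 0.05 and at least a 2-fold change. Among all tested genes 2.81% were called in WT and 21.4% in Bcl2 in either direction. Split by direction, 1.59% were called higher in WT and 1.22% lower, and 2.31% were called higher and 19.1% lower in Bcl2. Over the alternatives that kept all 12 libraries the count was 1 to 5 in WT and 1 to 7 in Bcl2, and leaving out single libraries gave 0 to 3 in WT and 1 to 4 in Bcl2. It was 0 in WT without BM WT library 6 or PT WT library 10, and without library 9 it was 2 in Bcl2. At an unadjusted p under 0.05, 5 of the 9 passed in each genotype, beside 16.5% of all tested genes in WT and 37.2% in Bcl2. Every PT library lay above every BM library for 6 of the 9 genes in WT and 5 in Bcl2, beside 14.9% and 5.18% of all tested genes. The median difference of the 9 genes was 1.58 in WT and 1.34 in Bcl2, beside medians over all tested genes of 0.22 and -1.01. Relative to the latter the Bcl2 differences were larger, and with libraries centred on their medians 7 of the 9 genes were called in Bcl2. That centring also turned the split of all called Bcl2 genes from 311 higher and 2567 lower to 1636 higher and 467 lower.

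Markers of some other cells moved with tissue as well. Those of T cells overlapped between tissues, with sums of 49 to 71.2 TPM in BM WT and 30.5 to 91.2 TPM in PT WT. In the Bcl2 groups the T cell sums were 39.3 to 49.3 and 7.27 to 177 TPM. NK cell and mesothelial markers summed to at most 13.1 and 2.14 TPM in any library. No tested gene of these lists was called between tissues. Summed B cell markers were at 79.6 to 268 TPM in BM WT and 637 to 1430 TPM in PT WT, and at 32.9 to 245 and 239 to 843 TPM in the Bcl2 groups, with Ighm, the IgM heavy chain, called higher in Bcl2 (2.91, adjusted p = 0.0167, limma). Summed macrophage markers were at 107 to 221 and 239 to 390 TPM in WT and at 47.2 to 208 and 160 to 720 TPM in Bcl2, with none of the 8 tested markers called, and Gata6, which defines large peritoneal macrophages, was at 0 in all groups but PT WT. Cd68 had the highest mean of that list in every group, and its members did not move together. In Bcl2, Cd68, Marco, C1qb, Csf1r and Timd4 were higher in PT, while Adgre1, Mertk and C1qc were lower (-0.79, -0.76 and -0.28). Of the tested markers in WT, C1qb alone was lower (-0.49). Markers of dendritic cells, which also express Itgax, summed to 3.26 to 12.9 TPM in BM WT and 13.2 to 35.9 TPM in PT WT, without overlap, and to 5.58 to 23.5 and 8.85 to 22.1 TPM in the Bcl2 groups, with overlap.

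Mast cell markers summed to 16.9 to 78.0 TPM in BM WT and 32.2 to 678 TPM in PT WT, and to 9.37 to 17.1 and 4.91 to 49.3 TPM in the Bcl2 groups. The mast cell protease Cma1 was called higher in WT (4.19, adjusted p = 0.0246, limma). Of the other mast cell markers in WT, Cpa3, Mcpt4 and Tpsb2 were higher (2.92, 3.45 and 2.85) and Kit lower (-0.44), none of them called. Platelet markers summed to 1.78 to 3.97 and 31.9 to 156 TPM in WT and to 2.28 to 24.1 and 13.3 to 526 TPM in Bcl2. The platelet chemokine Pf4 was called higher in Bcl2 (4.04, adjusted p = 0.0456, limma), and the highest sum held 521 TPM of Pf4. The other platelet markers did not follow it in Bcl2. Ppbp differed by 0.45 and Itga2b by -1.10, neither called. Gp9 and Gp1bb had means of 0.53 and 0.21 TPM in BM Bcl2 and were at 0 in PT Bcl2. Erythroid markers summed to 26.4 to 122 and 1.84 to 9.26 TPM in WT and to 70.2 to 964 and 0 to 5.49 TPM in Bcl2, with the beta globin Hbb-bs called lower in both genotypes. Endothelial markers summed to 5.89 to 7.67 and 18.4 to 30.1 TPM in WT, and to 10.4 to 18.5 and 8.38 to 17.4 TPM in Bcl2. Most of this came from Vwf, with means of 5.75 and 22.5 TPM in WT and 13.6 and 12.1 TPM in Bcl2. Cdh5, Tek and Emcn were at or near 0 in every group. For eosinophil markers the sums were 2.06 to 7.87 and 8.89 to 21.5 TPM in WT, and 1.63 to 9.63 and 5.84 to 23.2 TPM in Bcl2. Of that list, Epx was at 0 in all groups and Prg2 in all but BM Bcl2. No tested gene of these last lists was called between tissues. The part of these cells in the differences of the adhesion molecules was not tested.

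Neutrophil markers summed to 188000 to 350000 TPM in BM WT and 14300 to 53600 TPM in PT WT, and to 76700 to 219000 and 18700 to 67600 TPM in the Bcl2 groups, most of it from S100a8 and S100a9, which were called lower in PT in both genotypes. The members of that list did not move together. Ly6g, which encodes an antigen that GR1 antibodies bind, ranged from 588 to 1266 TPM in BM WT and from 0 to 14.9 TPM in PT WT and was called lower (-7.25, adjusted p = 0.00311, limma), while in Bcl2 it ranged from 51.5 to 1225 and 58.9 to 126 TPM and was not called. Csf3r, the G-CSF receptor, was called higher in Bcl2 (3.38, adjusted p = 0.00673, limma). Immature neutrophil genes summed to 13100 to 36600 TPM in BM WT and 135 to 240 TPM in PT WT, and to 16600 to 40400 and 207 to 267 TPM in the Bcl2 groups. Of these genes 7 of 8 were called lower in WT and 8 of 8 in Bcl2, beside 1.22% and 19.1% of all tested genes. In such bulk samples fewer cells of a type and less RNA per cell cannot be told apart.

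**Figure D2:**
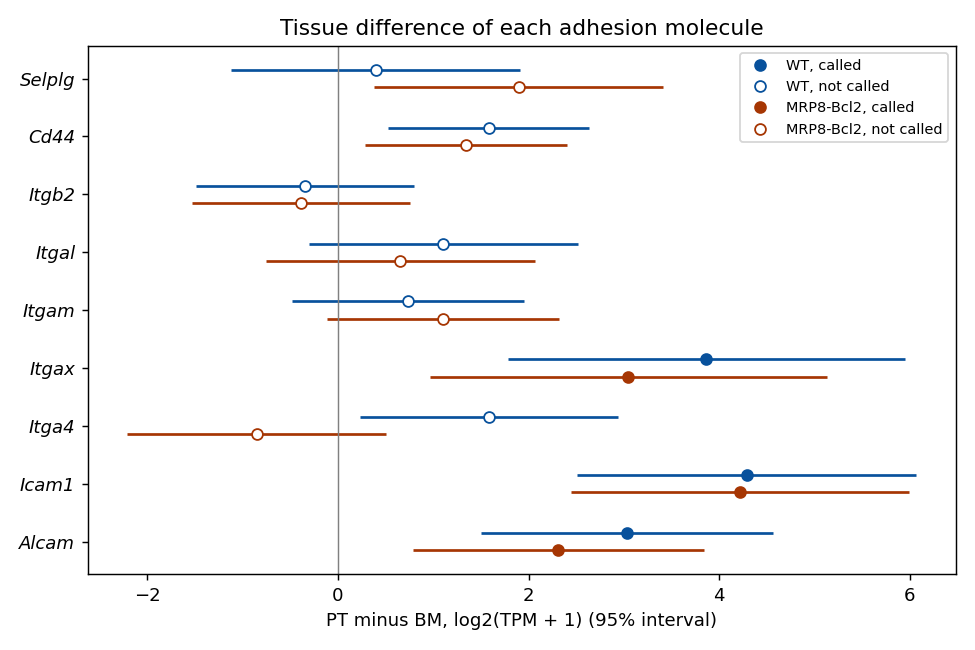
Difference of PT minus BM for each gene in log2(TPM + 1), with the 95% interval from limma, in WT (blue) and MRP8-Bcl2 (brown), and filled points where the gene was called. Icam1, Itgax and Alcam lie between 2.31 and 4.29, whereas both Itgb2 points lie below 0.

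The selectin ligands did not pass the test. Cd44, on chromosome 2 at 102811141 to 102901665 (minus strand), stood at 208, 390 and 455 TPM in BM WT and at 791, 721 and 1742 TPM in PT WT, and at 335, 245 and 238 and then 966, 472 and 706 TPM in the Bcl2 groups. The PT libraries lay above the BM libraries in both genotypes, with log2 differences of 1.58 in WT (adjusted p = 0.108, limma) and 1.35 in Bcl2 (adjusted p = 0.0647). With the homopolymer genes left out and TPM rescaled, Cd44 passed in both (adjusted p = 0.00901 and 0.00558), and it passed in Bcl2 with median centring (0.00876). The Bcl2 difference of Cd44 without library 9 was 1.32 (adjusted p = 0.120, limma). Selplg, which lies on chromosome 5 at 113818536 to 113832644, overlapped between BM WT (29.2, 139 and 129 TPM) and PT WT (133, 142 and 64.3 TPM). Its Bcl2 groups did not overlap, at 95.4, 26.1 and 57.1 TPM in BM and 419, 131 and 140 TPM in PT, and its differences were 0.40 in WT (adjusted p = 0.829, limma) and 1.90 in Bcl2 (adjusted p = 0.0689). Without library 9 the latter was 2.14 (adjusted p = 0.0776, limma), and Selplg passed in Bcl2 with median centring (0.0204) and without the homopolymer genes (0.0240).

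The shared beta chain moved little. Itgb2, on chromosome 10 at 77530252 to 77565708, stood at 341, 513 and 371 TPM in BM WT and at 243, 200 and 655 TPM in PT WT, and at 562, 367 and 208 and then 358, 240 and 225 TPM in the Bcl2 groups. Its differences were -0.34 in WT (95% interval -1.48 to 0.80) and -0.38 in Bcl2 (-1.52 to 0.76), so changes of more than 2-fold lower remain inside the interval. The sign turned with the homopolymer genes left out (0.21 in WT and 0.37 in Bcl2) and, in Bcl2, with median centring (1.21), and without library 9 the Bcl2 difference of Itgb2 was -0.25. Itgal, on chromosome 7 at 127296260 to 127335138, stood at 62.4, 117 and 74.9 TPM in BM WT and at 128, 85.8 and 510 TPM in PT WT, and at 72.8, 71.6 and 46.6 and then 191, 59.3 and 85.4 TPM in the Bcl2 groups. Its groups overlapped in both genotypes, with differences of 1.11 and 0.66 that were not called. Without library 9 the latter was 0.76, and Itgal was called in Bcl2 with median centring (adjusted p = 0.0406, limma). Itgam, on chromosome 7 at 128062640 to 128118491, was the highest of the 9 in every group by mean TPM, which is per transcript length. It stood at 575, 785 and 657 TPM in BM WT, 978, 795 and 1754 TPM in PT WT, 792, 504 and 290 TPM in BM Bcl2, and 2482, 830 and 558 TPM in PT Bcl2. Its differences of 0.73 in WT and 1.10 in Bcl2 were not called. Without library 9 the latter was 1.56 (adjusted p = 0.0862, limma), and Itgam was called higher in Bcl2 with median centring (0.0220) and without the homopolymer genes (0.0125). Of its 31-mers, 67.2% also occur in the overlapping gene model Gm49368, which is not a row of the deposited table. Whether reads were split between them was not tested.

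Because the ratio of genes in the same library does not depend on the scaling between libraries, the alpha chains were also set against Itgb2. The log2 ratio of summed Itgal, Itgam and Itgax TPM to Itgb2 TPM stood at 0.91, 0.83 and 0.98 in BM WT and at 2.23, 2.20 and 1.98 in PT WT. In BM Bcl2 it stood at 0.62, 0.67 and 0.70 and in PT Bcl2 at 2.93, 1.92 and 1.56. All 6 PT libraries were above all 6 BM libraries. The mean difference was 1.22 in WT and 1.47 in Bcl2, and 1.35 over both (exact permutation of tissue within each genotype, two-sided p = 0.005, the smallest these 400 permutations can give, adjusted p = 0.01 over 4 values). Within a single genotype 3 against 3 libraries cannot go below p = 0.1, and both genotypes gave that value in the exact test. The mean difference without library 9 was 1.76 in Bcl2 and 1.49 over both (exact permutation p = 0.005, adjusted p = 0.02). The ratio rests mostly on Itgam.

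Itgax was a small share of the alpha chains, larger in PT than in BM. It made up 0.72%, 1.02% and 0.15% of their summed TPM in BM WT and 2.48%, 4.35% and 12.2% in PT WT. In Bcl2 it made up 0.19%, 1.31% and 0.19% in BM and 2.26%, 1.79% and 2.77% in PT. The difference over both genotypes was 3.71 percentage points (exact permutation p = 0.005, adjusted p = 0.01), 2.25 points without library 12, and 3.58 points without library 9 (exact permutation p = 0.01, adjusted p = 0.02). Without any 1 of the BM WT libraries the adjusted p was 0.07 to 0.09. The shares of Itgam (adjusted p = 0.567, exact permutation) and Itgal (adjusted p = 0.965, exact permutation) did not pass.

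**Figure D3:**
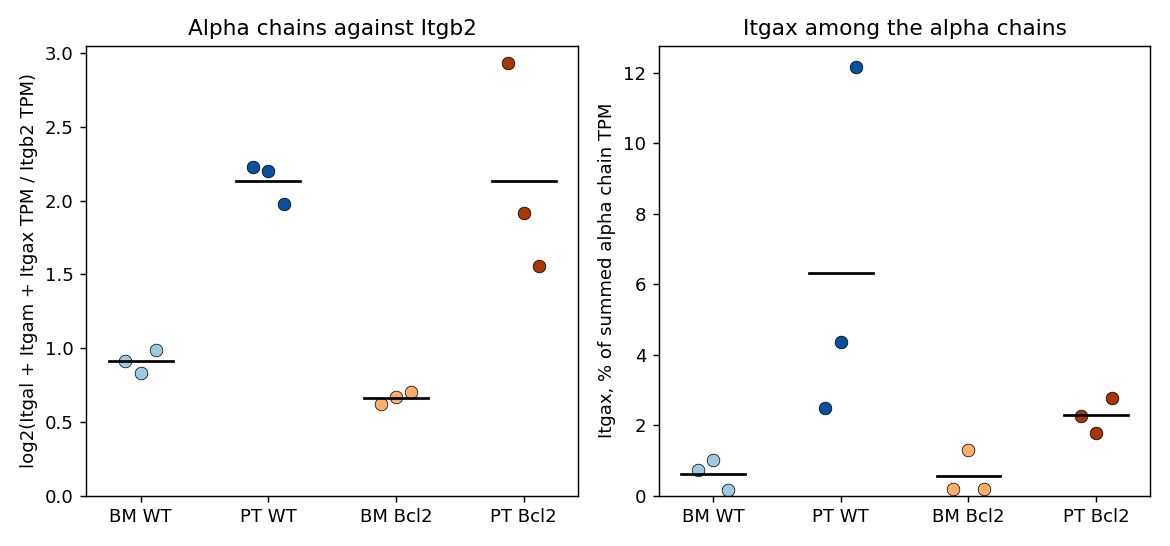
Left, the log2 ratio of summed Itgal, Itgam and Itgax TPM to Itgb2 TPM, and right, the share of Itgax in the summed alpha chain TPM in percent, with 1 point per library and a bar at the mean of 3 libraries. The BM libraries lie at or below 0.98 on the left and the PT libraries at or above 1.56.

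Itga4, on chromosome 2 at 79255426 to 79333123 and overlapped by the antisense gene Cerkl, had a higher mean in PT than in BM in WT and a lower one in Bcl2, and no test of it passed. It stood at 21.6, 22.0 and 9.43 TPM in BM WT and at 45.3, 31.8 and 95.8 TPM in PT WT, without overlap. In Bcl2 it stood at 17.3, 34.2 and 48.5 TPM in BM and at 15.3, 12.4 and 24.0 TPM in PT, with overlap. The tissue differences of 1.59 in WT (adjusted p = 0.223, limma) and -0.85 in Bcl2 (adjusted p = 0.349) did not pass, nor did their interaction of -2.44 ± 0.90 (adjusted p = 0.247). The Bcl2 difference turned positive with median centring (0.74) and quantile normalization (0.12). Every PT Bcl2 library was below every PT WT library, as were 18.8% of all tested genes, and the difference of -1.58 was not called (adjusted p = 0.339, limma). Without library 9 the difference of Itga4 was -1.10 between tissues in Bcl2, -2.69 for the interaction and -1.84 between genotypes in PT, none of them called.

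None of the 9 genes was called for the interaction of tissue and genotype, where 0.0149% of all tested genes were called, or for MRP8-Bcl2 against WT in BM (0.0223%) or in PT (0.0297%). At an unadjusted p under 0.05, 1 of the 9 passed for the interaction and 1 in PT, which was Itga4 in both, and none in BM. The shares of all tested genes at that threshold were 16.9%, 12.7% and 7.36%. These comparisons share libraries with the tissue comparisons. Icam1 showed an interaction of -0.07, with a 95% interval from -2.58 to 2.44, so a genotype effect of several fold on its tissue difference would not have been detected.

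**Figure D4:**
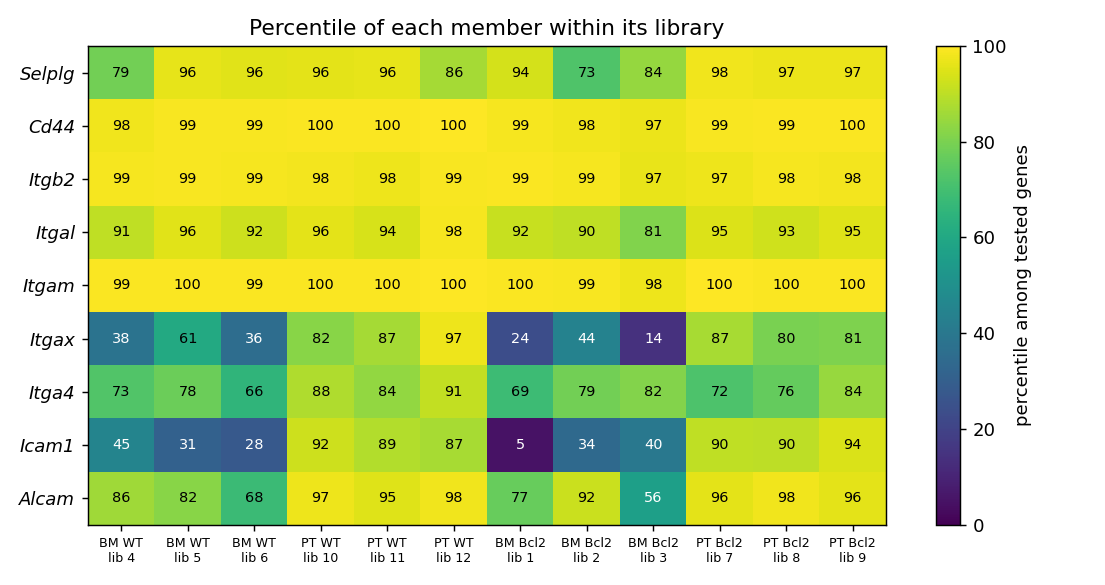
Percentile of each gene among the 13456 tested genes of the same library, by group and library number, with 100 the highest level. Icam1 and Itgax lie at or below 61 in every BM library and at or above 80 in every PT library, while Cd44, Itgb2 and Itgam stay at or above 96.6 throughout.

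The wider adhesion pathway was described with 5 lists of genes, 64 of which were tested. In WT, 1 of 14 selectins and makers of selectin ligands was higher and no gene of the other lists was called, beside 1.59% of all tested genes higher and 1.22% lower. In Bcl2, 1 of those 14 was higher and 1 lower, and 1 of 11 other integrin chains, 4 of 20 genes of integrin activation, 2 of 9 immunoglobulin-like and junctional molecules, and 2 of 10 shedding proteases and membrane to actin linkers were lower. The 10 lower genes of 64 stand beside 19.1% of all tested genes lower in Bcl2, and the 1 higher gene beside 2.31% higher. None of the 64 was lower with median centring, which gave 16 higher, or with quantile normalization, which gave 4 higher, and without library 9 there were 6 lower and 3 higher. These alternatives for the lists were chosen after seeing the data.

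St3gal6, a sialyltransferase that helps to build selectin ligands, was the gene higher in both genotypes. It ranged from 1.90 to 72.2 TPM in BM WT and 244 to 704 TPM in PT WT, a difference of 4.02 (adjusted p = 0.0407, limma), and from 9.04 to 27.4 and 162 to 542 TPM in the Bcl2 groups, a difference of 4.31 (adjusted p = 0.00854, limma). In Bcl2 the call of St3gal6 was also made with median centring, with quantile normalization and without library 9 (adjusted p = 0.00581, 0.0119 and 0.0205, limma), whereas in WT it was lost in all of these (0.0929, 0.0542 and 0.0537).

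The lower calls in Bcl2 were lost with median centring and with quantile normalization, and these lists were not tested without the homopolymer genes. Fermt3 (kindlin-3), which binds integrin beta chains to activate them, ranged from 36.0 to 65.3 TPM in BM Bcl2 and 0 to 8.13 TPM in PT Bcl2, a difference of -3.56 (adjusted p = 0.00702, limma), which became -1.97 (0.0902) with median centring and -4.14 (0.00623) without library 9, and was -1.85 (0.243) in WT. Vav3, a guanine nucleotide exchange factor, differed by -2.79 in Bcl2 and 0.28 in WT, and Plcg2, a phospholipase downstream of integrins, by -2.54 and -0.60. Spn (CD43), a large sialylated surface protein, differed by -2.81 in Bcl2 and -1.23 in WT, Itga1, the alpha chain of a collagen receptor, by -2.38 and -1.06, and Ceacam1 by -1.84 and -1.55. Rdx (radixin) and Ezr (ezrin), which link membrane proteins to actin, differed by -2.85 and 0.74 in Bcl2 and by -0.92 and 2.10 in WT, and the metalloprotease Adam15 by -3.35 and -3.14. Of these, Ezr was called in neither genotype (adjusted p = 0.370 in Bcl2 and 0.0659 in WT, limma) and was called higher in Bcl2 with median centring (0.0155), and Vav3, Plcg2, Spn, Itga1, Ceacam1, Rdx and Adam15 were called in Bcl2 with the scaling as deposited but not with median centring or quantile normalization. Without library 9, Itga1 and Ceacam1 also lost the call in Bcl2 (0.0639 and 0.0698).

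Over the 12 libraries the gene most like an adhesion molecule in log2 level, by Pearson's r, was Pmaip1 for Icam1 (0.972), Marcksl1 for Alcam (0.934), March7 for Itgax (0.966), Btg1 for Cd44 (0.966) and Rbm47 for Selplg (0.973). It was Tut7 for Itgal (0.944), Mettl2 for Itgam (0.938) and Arl4a for Itga4 (0.930). Among the 9 genes, Itgax and Alcam were the most alike (r = 0.92), and the lowest r was that of Itgb2 and Icam1 (-0.42). These values are descriptions over libraries that share tissue, genotype and scaling.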

How the data were processed

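RNA of sorted cells was amplified and sequenced by the authors, with all 12 libraries in 1 pool and 1 lane. The deposited values are log2(TPM + 1) per gene and library, which the authors made with AltAnalyze at default settings. The quantifier version, genome build, annotation and strand setting are not given in the sources used here. Libraries were assigned to groups from the header of a deposited marker table. The authors' group averages, fold changes, correlation scores and counts of changed genes were not used, and 2 columns of per-sample values in an abundance table that names no sample were left out.

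The values were tested with limma 3.58.1 (R 4.3.3) in 1 fit of the 4 groups with 8 residual degrees of freedom, eBayes with a trend, and Benjamini-Hochberg adjustment over the 13456 genes that reached 1 TPM in 3 or more libraries. Calls needed an adjusted p under 0.05 together with a 2-fold or larger change, or for the interaction at an adjusted p under 0.05 alone. Fold changes on this scale understate the change of low genes. Ratios were tested by exact permutation over libraries. The fit was checked on simulated data, where many true changes were not called, so a gene without a call can still differ. Libraries were treated as independent, although bone marrow and peritoneal cells were taken from each mouse. Coordinates and shared 31-mers come from GENCODE M21 (GRCm38), which may not be the annotation the authors used.

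The 9 genes and the gene lists were chosen with earlier results of these data known. All 9 genes are described, each list is described by its counts with at most 4 genes named (those with the smallest p in either tissue comparison), and the most similar gene is given for each of the 9 except Itgb2, for which it is not reported here. Alternatives covered the pseudocount, the filter, the scaling, the homopolymer genes, the groups in the fit, the trend, the call rule and each library left out. The alternative call rules were no stricter than the main one and could not lose a call. Libraries outside the compared groups were also left out, which leaves the difference itself unchanged.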

Additional observations from a re-analysis of the deposited data

How the results depend on the processing

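No paired analysis was possible because the columns of the deposited table carry no replicate numbers of the labels, so a replicate block could not be fitted, although BM and PT cells were taken from each mouse. The number of the 9 genes called for PT against BM in WT was 3, and it was 1 with a pseudocount of 0.1, with no filter, with median centring, without the trend and with only the groups compared, 5 at an unadjusted p under 0.05, and 0 to 3 with single libraries left out. In MRP8-Bcl2 it was 3, and it was 1 with no filter and with only the groups compared, 7 with median centring, 6 without the homopolymer genes, 5 at an unadjusted p, and 1 to 4 with single libraries left out. The interaction and MRP8-Bcl2 against WT in PT gave 0, and 1 each at an unadjusted p.

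Signs turned only for differences that were not called. For PT against BM, Itgb2 turned to 0.21 (WT) and 0.37 (Bcl2) without the homopolymer genes and to 1.21 (Bcl2) with median centring, Itga4 to 0.74 and 0.12 (Bcl2) with median centring and quantile normalization, and Selplg in WT ranged from -0.32 to 0.78 with single libraries left out. For the interaction, median centring gave 1.57 (Cd44), 1.76 (Itgb2), 1.36 (Itgal), 0.99 (Itgax), 1.74 (Icam1) and 1.09 (Alcam), and quantile normalization gave 0.10, 0.34, 0.11, 0.13, 0.81 and 0.036 for the same genes. Without the homopolymer genes it was 0.16 (Itgb2) and 0.18 (Icam1), and with a pseudocount of 0.1 it was 0.46 (Icam1). For MRP8-Bcl2 against WT in BM, Icam1 turned to -0.36 with a pseudocount of 0.1, -0.56 with median centring and -0.47 with quantile normalization, and Alcam to -0.33 and -0.15 with the last of these 2 settings. In PT, median centring gave 0.53 (Cd44), 0.83 (Itgb2), 0.23 (Itgal), 0.99 (Itgam) and 0.75 (Alcam), and Itgam gave 0.067 with quantile normalization and 0.097 without the homopolymer genes. The cause of these changes was not tested.

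With single libraries left out, the interaction ranged from -0.48 to 0.17 (Cd44), -0.42 to 0.48 (Itgb2), -0.97 to 0.31 (Itgal), -0.25 to 0.82 (Itgam), -1.48 to 0.24 (Itgax) and -0.99 to 0.54 (Icam1). The genotype difference in BM ranged from -0.54 to 0.18 (Itgb2), -0.44 to 1.09 (Icam1) and -0.28 to 0.91 (Alcam), and in PT from -0.57 to 0.28 (Itgb2), -0.70 to 0.37 (Itgam), -0.14 to 0.42 (Icam1) and -0.75 to 0.17 (Alcam). The share of Itgal ranged from -0.66 to 4.58 percentage points in WT and -1.67 to 0.94 over both genotypes, that of Itgam from -0.40 to 3.27 in Bcl2, and that of Itgax from 2.25 to 4.67 over both. The ratio of alpha chains to Itgb2 kept its direction in all alternatives tried. Its p says nothing about stability, since it was at the smallest value the permutations allow over both genotypes and could not pass within a genotype. The number of all genes called was 378 in WT (634 without the homopolymer genes, 179 with only the groups compared, 2223 at an unadjusted p, 96 to 518 with single libraries left out) and 2878 in Bcl2 (1457 with quantile normalization, 1664 without the homopolymer genes, 5008 at an unadjusted p, 1189 to 3074 with single libraries left out). For the other 3 comparisons it was 2, 3 and 4, and between 0 and 22 over the alternatives with adjusted p (2279, 991 and 1709 at an unadjusted p).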
